A study of Mus musculus with 18 samples.

Results

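The 42 genes described here drive the cell cycle: cyclins and their kinases, the machinery that copies DNA, and the machinery that divides the chromosomes. They were taken from a named list and matched by symbol through their Ensembl IDs. All 42 were found among the 37224 genes of the count table, and all 42 passed the filter on low counts in each comparison. 7 of them act on entry into the cycle (D cyclins, their kinases Cdk4 and Cdk6, and the Myc factors), and 18 act at the G1/S boundary and in replication. These 25 are counted together as G1/S genes, and the other 17 are counted as G2/M genes.

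The RNA came from C57BL/6 mouse embryonic stem cells after differentiation, in 6 groups of 3 libraries. Neuromesodermal progenitors (NMPs), whose progeny form both spinal cord and paraxial mesoderm, were Hoxb1-null or wild type. Neural progenitors (NPs) were of 4 kinds: Hoxb1-expressing with SAG, not expressing Hoxb1 with SAG, Hoxb1-expressing without SAG, and untreated, with neither Hoxb1 nor SAG. Hoxb1 is a homeodomain transcription factor, and SAG is an agonist of Smoothened that activates hedgehog signalling. The Hoxb1-expressing NPs were given doxycycline (DOX) and the others were not, so Hoxb1 and DOX cannot be told apart. Whether the groups share a parental line or clone, which promoter drives Hoxb1, and whether the 3 libraries of a group are separate cultures are not stated in the labels. If they are not separate cultures, the p-values measure only technical spread. Library numbers run from 2533 to 2538 for NPs with SAG, from 7390 to 7395 for NPs without SAG and from 8085 to 8090 for NMPs, and each range holds both Hoxb1 states. Every comparison of SAG with no SAG, of Hoxb1 effects between SAG states, or of NMPs with NPs therefore runs across library sets, and the set cannot be told apart from the biology there.

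Total counts ran from 22610407 to 26974315 per library in the NPs with SAG and from 13301476 to 21141058 in the other 4 groups. Mitochondrial genes took 0.792% to 1.36% of counts, with the lowest share in Hoxb1-null replicate 3, which also differed most from its replicates over all genes. Hoxb1 followed the labels: it stood at 15.2 ± 0.844 counts per 1000000 counted reads (CPM) in Hoxb1-null NMPs and 254 ± 16.1 CPM in wild-type NMPs. With Hoxb1 and SAG, NPs had 591 ± 21.2 CPM against 0.459 ± 0.0662 CPM in NPs with SAG, and NPs with Hoxb1 had 323 ± 16.04 CPM against 0.358 ± 0.288 CPM in untreated NPs (SD, n = 3). Of the defining markers, T averaged 1098 CPM in Hoxb1-null and 1185 CPM in wild-type NMPs, but Sox2 only 16.4 CPM in Hoxb1-null and 13.4 CPM in wild-type NMPs, against 620 CPM in untreated NPs. Pou5f1, a pluripotency marker, averaged 510 CPM in Hoxb1-null and 385 CPM in wild-type NMPs, and the 7 neuron markers summed to between 851.5 and 1995 CPM in the NP libraries. In bulk samples, fewer cells of a type and less RNA per cell cannot be told apart.

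The cycle is driven by kinases that need a cyclin partner. D cyclins with Cdk4 and Cdk6 inactivate the retinoblastoma proteins, which frees E2F factors to switch on cyclin E and the replication genes. Cdc6 and Cdt1 load the Mcm2 to Mcm7 helicase onto origins, Pcna holds the polymerase on the template, and Rrm1, Rrm2 and Tyms supply nucleotides. Cyclins A and B with Cdk1 then bring the cell into mitosis, and G2/M genes share a late wave of transcription by B-Myb, FoxM1 and the MuvB complex. Neural progenitors slow and leave the cycle as they become neurons, and hedgehog signalling is known to act as a mitogen in neural tissue.

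The promoters of G1/S and G2/M genes held different letters. In RefSeq (GRCm38.p6), 34 of the 42 genes had an entry for the stretch from 250 bases before to 50 bases after a start site. Ccnd1, Ccnd2, Myc, Ccne2, Gins2, Mcm4, Ccna2 and Aurkb had no entry. Both strands were searched for E2F-type letters (TTTCCCGC, TTTGGCGC, TTTCGCGC or TTTGCCGC, which can overlap each other), for the cell cycle homology region TTTGAA, and for CCAAT, the letters bound by NF-Y. An E2F-type match lay in 8 of 17 promoters of the 15 G1/S replication genes (47.1%) and in 1 of 15 promoters of the G2/M genes (6.67%), against 2.26% of all 32851 mouse promoters. TTTGAA lay in 11 of 15 G2/M promoters (73.3%) and in 2 of 17 G1/S replication promoters (11.8%), against 17.9% of all. CCAAT was common in both, in 14 of 15 G2/M promoters (93.3%) and 12 of 17 G1/S replication promoters (70.6%), against 37.4% of all. TTTGAA and CCAAT stood together in 11 of 15 G2/M promoters (73.3%), against 6.95% of all. Among 5 promoters of 4 entry genes each motif was found in 1. A match is a description of letters and not of binding.

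The 200 bases before the start site are shown for 2 helicase subunits and for the mitotic kinase and one of its cyclins, because their levels are described in the results below. Capitals mark E2F-type letters, TTTGAA and CCAAT on either strand (CCAAT reads ATTGG on the other strand). Mcm6 (ENSMUSG00000026355) lies on the minus strand at chr1:128359706-128359905, Mcm5 (ENSMUSG00000005410) on the plus strand at chr8:75109309-75109508, Cdk1 (ENSMUSG00000019942) on the minus strand at chr10:69352913-69353112 and Ccnb2 (ENSMUSG00000032218) on the minus strand at chr9:70421555-70421754.
Mcm6: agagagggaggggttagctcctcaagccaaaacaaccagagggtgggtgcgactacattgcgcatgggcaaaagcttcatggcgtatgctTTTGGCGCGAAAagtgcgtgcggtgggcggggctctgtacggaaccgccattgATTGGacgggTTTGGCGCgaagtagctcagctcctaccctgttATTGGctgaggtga
Mcm5: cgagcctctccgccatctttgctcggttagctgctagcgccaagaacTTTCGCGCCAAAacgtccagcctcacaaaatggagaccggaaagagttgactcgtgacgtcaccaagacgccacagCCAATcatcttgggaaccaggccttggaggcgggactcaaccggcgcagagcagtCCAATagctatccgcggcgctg
Cdk1: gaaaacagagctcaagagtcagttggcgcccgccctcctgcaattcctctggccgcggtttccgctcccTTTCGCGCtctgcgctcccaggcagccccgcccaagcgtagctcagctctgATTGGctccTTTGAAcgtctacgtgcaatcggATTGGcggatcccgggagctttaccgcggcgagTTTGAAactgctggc
Ccnb2: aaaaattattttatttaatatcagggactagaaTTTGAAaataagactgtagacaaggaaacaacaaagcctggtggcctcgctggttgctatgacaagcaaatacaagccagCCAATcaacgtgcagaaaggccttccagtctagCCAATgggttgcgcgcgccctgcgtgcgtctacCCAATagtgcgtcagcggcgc
Mcm6 held 3 E2F-type matches, of which 1 pair overlapped on opposite strands between 110 and 99 bases before the start, and Mcm5 held such a pair between 153 and 142 bases before it. Cdk1 was the 1 G2/M gene with an E2F-type match, and its TTTGAA lay at 71 to 66 and at 15 to 10 bases before the start. Ccnb2 had TTTGAA at 167 to 162 bases and 3 copies of CCAAT at 87 to 83, 54 to 50 and 21 to 17 bases before the start. The longer searched stretch held 2 copies of TTTGAA in Ccnb2 and 3 copies of CCAAT in both Cdk1 and Mcm5. Not all of these lay within the bases shown.

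Levels per length (RPKM, CPM scaled to the summed exon length) placed the same few genes at the top within a cell type. Cdk4 stood highest of the 42 in Hoxb1-null NMPs at 217 RPKM, followed by Cdc20, the activator of the anaphase-promoting complex, at 176 RPKM. Wild-type NMPs had the same leading pair, at 224 and 178 RPKM. In NPs without SAG the leading gene was Ccnd2, a D cyclin, at 189 RPKM with Hoxb1 and 239.9 RPKM in untreated cells. E2f2 was lowest in both kinds of NMP, at 0.875 RPKM in Hoxb1-null and 0.982 RPKM in wild-type cells. Replicates were close: the median coefficient of variation of the 42 genes was between 2.02% and 4.56% by group. Ccnd1, Ccnd3, Cdk4, Ccne2, Gins2, Mcm7, Ccna2 and Cdc20 share exon bases with an expressed gene on the opposite strand, and no label states the strand setting of the counting, so their values are uncertain to that extent. The share is largest for Gins2, a subunit of the replicative helicase complex, with 67.3% of its exon length inside Gse1. Pcna and Ccnb1 have pseudogenes with 19308 and 6696 counts over all libraries, so reads could be split between copies there.

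**Figure D1:**
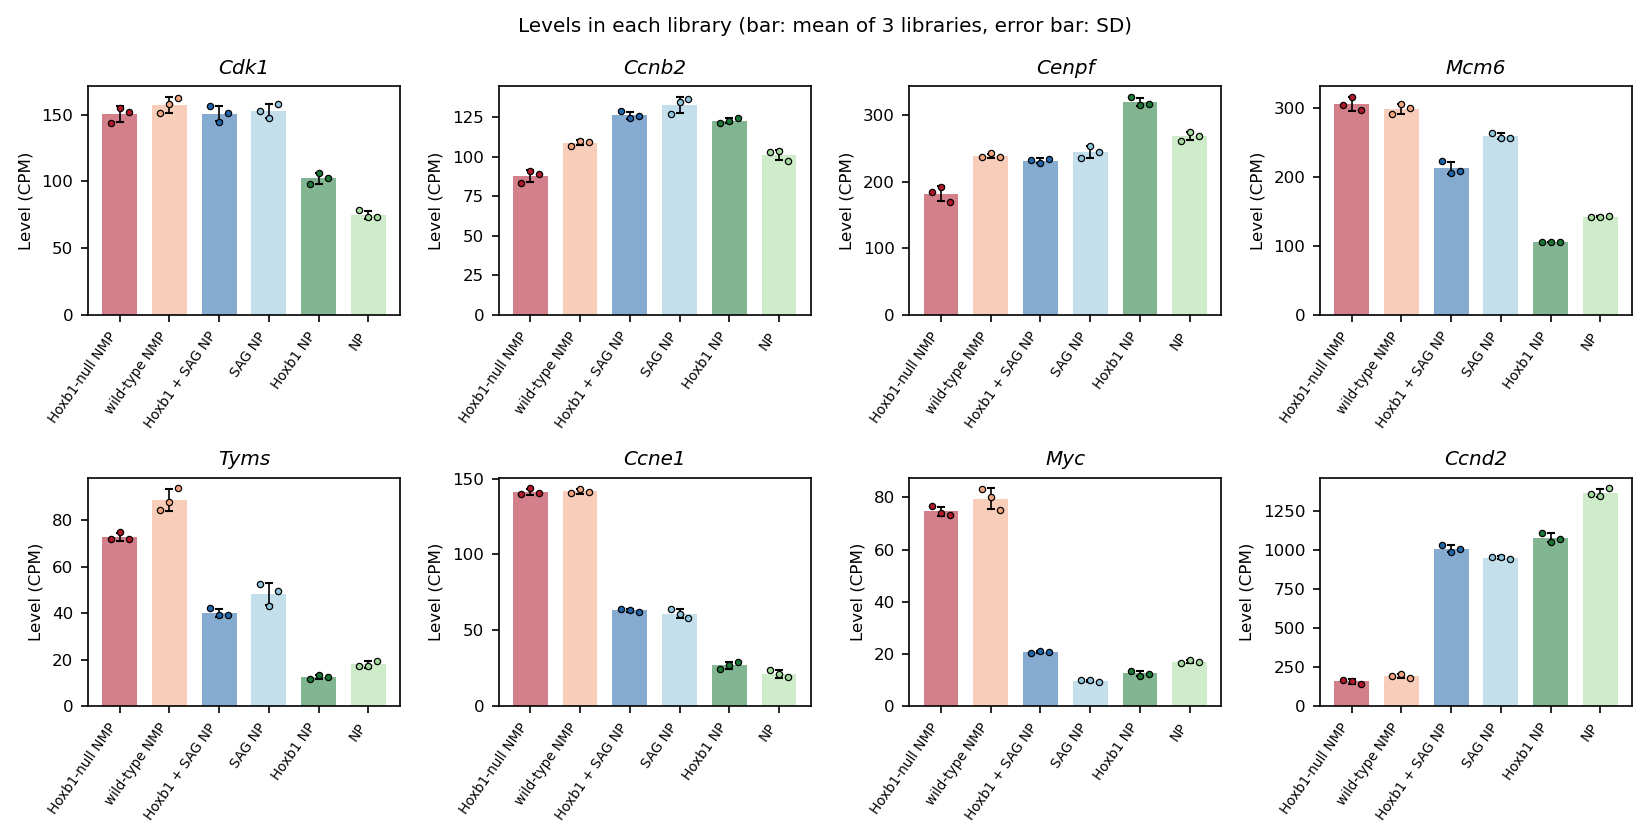
Levels in CPM (vertical axis, linear from 0) of 8 of the 42 genes in each library, by group. Bars are means of 3 libraries, error bars are SD and points are libraries. Cdk1, Mcm6, Tyms and Ccne1 stand lowest in the 2 NP groups without SAG, and Myc stands at 20.3 to 21.1 CPM in NPs with Hoxb1 and SAG against 9.23 to 9.99 CPM in NPs with SAG.

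In NMPs, loss of Hoxb1 went with lower levels of mitotic genes and of a few replication genes. Of the 17 G2/M genes 11 fell, 0 rose and 6 did not pass the test, with a median log2 change of -0.16. Of the 25 G1/S genes 7 fell, 2 rose and 16 did not pass. Over all 15032 genes tested, 14.9% were called higher and 13.9% lower, with a median change near 0 (-0.000128), so the 7 of 25 and 11 of 17 that fell stand beside 13.9%. No G2/M gene rose by edgeR's quasi-likelihood test (0 also at an unadjusted p under 0.05, as 19.9% of all genes were) or by DESeq2 (0).

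Cenpf, a kinetochore protein made in G2, had 185, 191.5 and 169.9 CPM in the Hoxb1-null NMPs, against 238, 243 and 237 CPM in the wild-type NMPs. The groups did not overlap, and the log2 change was -0.40 (SE 0.0429, edgeR adjusted p = 3.28e-07). Mki67, the Ki-67 protein that coats mitotic chromosomes, had 262.5, 266.5 and 241.5 CPM in null against 314, 347 and 341 CPM in wild type (log2 change -0.38, SE 0.0438, edgeR adjusted p = 8.64e-07). Ccnb2, cyclin B2, had 83.6, 90.7 and 89.3 CPM in null against 107, 109.9 and 109 CPM in wild type (log2 change -0.31, SE 0.0454, edgeR adjusted p = 1.83e-05). In these 3 genes every null library lay below every wild-type library. Such lack of overlap was not counted over all genes, here or below, and is not support beyond the tests. Aurkb, the kinase of the chromosomal passenger complex (-0.26), Cenpe, a kinetochore motor (-0.24), Plk1, a kinase of mitotic entry (-0.21), and the checkpoint kinase Bub1b (-0.19) fell by less. Birc5, the survivin subunit of that passenger complex, was at -0.13 with an adjusted p of 0.0319 by edgeR, and it lost the call in 7 of 12 alternatives. Ccnb1, cyclin B1, did not pass, at 97.0 ± 6.15 CPM in null and 96.0 ± 4.60 CPM in wild-type NMPs (log2 change 0.01, edgeR adjusted p = 0.867). Cdk1 did not pass either, at 151 ± 5.87 CPM in null and 157 ± 5.86 CPM in wild-type NMPs (log2 change -0.07, edgeR adjusted p = 0.265).

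Among the G1/S genes of NMPs the helicase did not move as a group: 5 of the 6 subunits Mcm2 to Mcm7 missed the threshold, and their median log2 change was -0.003 (range -0.144 to 0.031). Mcm7 alone fell, by 0.14 on the log2 scale, and lost that call without wild-type replicate 2 (edgeR adjusted p = 0.0628). All 3 nucleotide supply genes fell. Tyms, thymidylate synthase, had 71.8, 75.0 and 72.0 CPM in null NMPs against 84.7, 88.1 and 93.8 CPM in wild type, without overlap (log2 change -0.29, SE 0.0496, edgeR adjusted p = 0.000128). The ribonucleotide reductase subunits Rrm2 (-0.16) and Rrm1 (-0.15) fell as well, and so did Gins2 (-0.26). Of the D cyclins, Ccnd2 had 171, 162 and 143.5 CPM in null against 195, 207 and 181 CPM in wild type (log2 change -0.29, SE 0.0581, edgeR adjusted p = 0.00112). Ccnd3 changed by -0.30, and Ccnd1 stood at 472 ± 5.70 CPM in null and 462 ± 6.35 CPM in wild type (edgeR adjusted p = 0.615). Mycn (0.18) and E2f1 (0.17) rose, and neither passed DESeq2's Wald test (adjusted p = 0.0677 and 0.123).

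Wider lists of cell cycle genes were counted beside the 42. Of 57 other mitosis genes 27 fell, 2 rose and 28 did not pass (median -0.13), with Aspm, a spindle pole protein, at -0.35 and Nusap1, a spindle protein, at -0.34. Of 46 other replication genes 11 fell, 1 rose and 34 did not pass (median -0.06), led by Dscc1 (-0.34), which loads Pcna. Of 9 inhibitors and pocket proteins 2 rose (Rb1, 0.32, and Cdkn2a, 0.30), 1 fell and 6 did not pass. Markers of other states moved beside these counts. Of 6 NMP markers 5 fell and 1 rose, summing to 1349 to 1427 CPM in null and 1516 to 1687 CPM in wild-type NMPs. Of 5 pluripotent markers 3 rose (523 to 575 CPM in null, 399 to 425 CPM in wild type), and of 7 neuron markers 2 rose and 2 fell (142 to 144 CPM in null, 176 to 183 CPM in wild type). Of 4 mesenchyme markers 3 rose and 1 fell, with a median log2 change of 0.83 (range -0.50 to 1.38) at sums of 137 to 151 CPM in null and 141 to 149 CPM in wild type. Of 3 paraxial mesoderm markers tested 2 fell (median -0.23), and the list of 4 summed to 457 to 464 CPM in null and 540.4 to 597.8 CPM in wild type. Of 3 neural progenitor markers tested 1 rose and 0 fell. That list of 4 summed to 337 to 351 CPM in null and 319 to 346.5 CPM in wild type. Of 3 endoderm markers tested 1 rose and 0 fell, and the 1 floor plate marker tested did not pass. None of these markers was at 0 in either group, and their part in the result was not tested. Without null replicate 3, the library that stood apart, 12 G2/M genes and 9 G1/S genes fell and 1 G1/S gene rose.

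**Figure D2:**
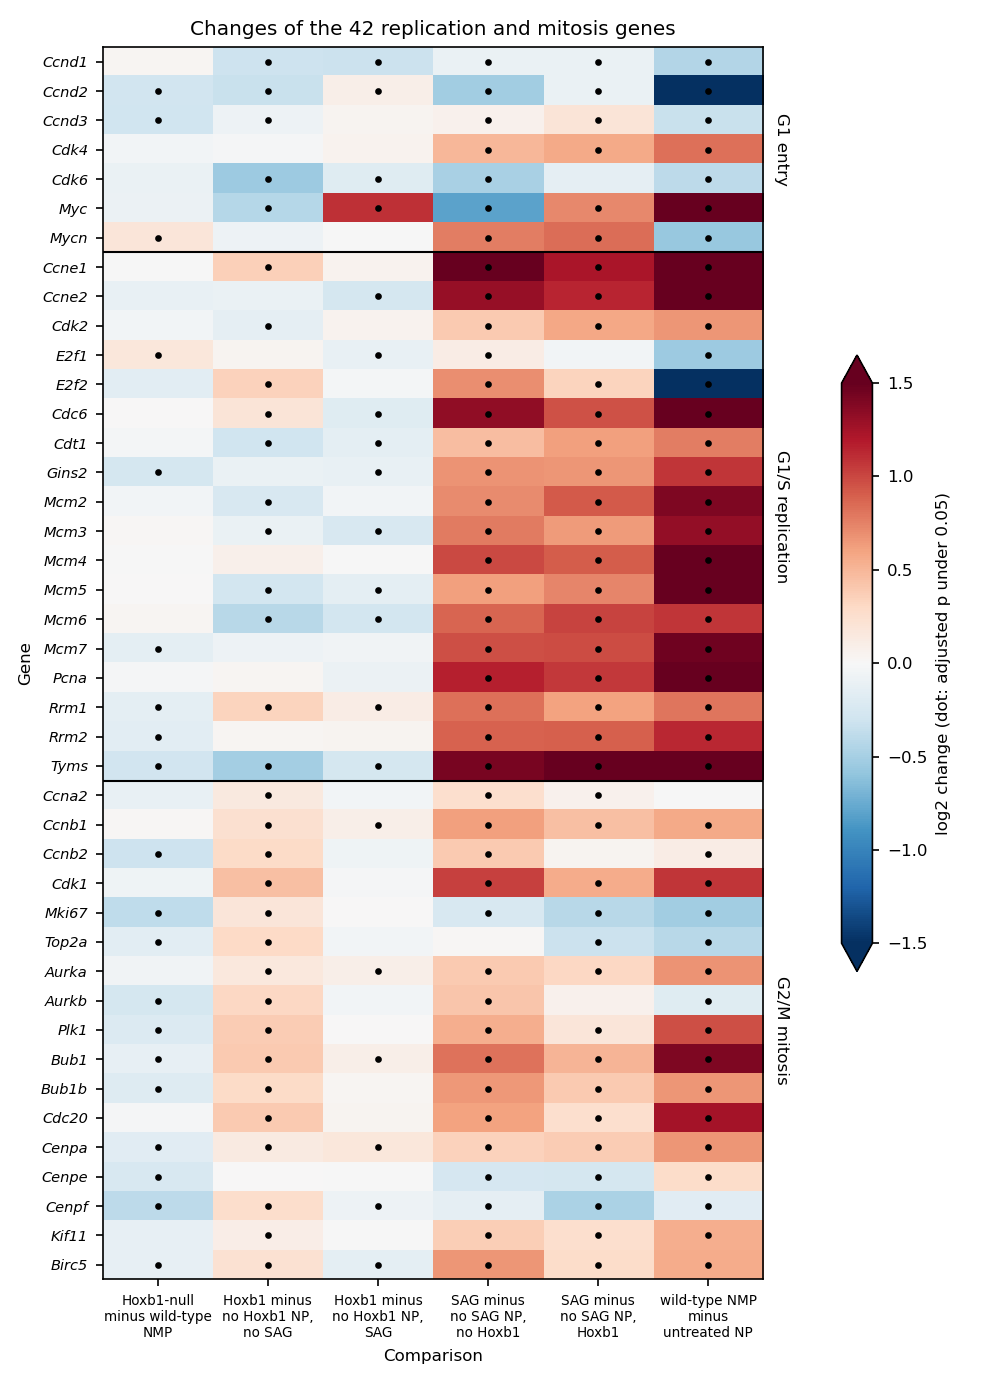
Log2 change (colour, limited to 1.5 in either direction) of the 42 genes (rows, by role) in 6 comparisons (columns), with a dot where the edgeR adjusted p was under 0.05. The G2/M rows are blue or pale for Hoxb1-null minus wild-type NMPs, red or pale for Hoxb1 minus no Hoxb1 in NPs without SAG (Cenpe at 0.01 and Kif11 at 0.10 are the palest), and pale for the same comparison with SAG. The G1/S replication rows are red in both SAG comparisons except for E2f1 (0.11 without and -0.04 with Hoxb1).

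In NPs without SAG, cells with Hoxb1 had higher levels of mitotic genes and lower levels of entry genes. 16 of 17 G2/M genes rose, 0 fell and Cenpe did not pass (log2 change 0.01), with a median log2 change of 0.26. DESeq2 called 15 higher and 0 lower, and 0 were lower at an unadjusted p under 0.05 by edgeR, as 25% of all genes were. Of the 25 G1/S genes 12 fell, 4 rose and 9 did not pass. The background was 24.1% of 16238 genes called higher and 22.1% lower, with a median change of 0.00305.

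Cdk1 had 98.4, 106 and 102 CPM in NPs with Hoxb1, against 78.5, 73.2 and 73.3 CPM in untreated NPs. The groups did not overlap (log2 change 0.46, SE 0.0429, edgeR adjusted p = 6.29e-12), and this was the largest change among the G2/M genes. Cdc20 (0.40), Bub1, a spindle checkpoint kinase (0.39), and Plk1 (0.38) followed. Ccnb2 had 121, 122 and 124 CPM with Hoxb1 against 103, 103 and 97.3 CPM in untreated NPs (log2 change 0.29, SE 0.0381, edgeR adjusted p = 2.74e-08). Top2a, the topoisomerase that untangles sister chromatids, had 1297, 1286 and 1322 CPM with Hoxb1 against 1047, 1101 and 1060.0 CPM in untreated NPs (log2 change 0.29, SE 0.0299, edgeR adjusted p = 5.20e-11). Cenpf and Mki67, the genes with the largest falls of the G2/M set in Hoxb1-null NMPs, rose by 0.26 and 0.18 here. The smallest rise was that of the spindle motor Kif11 (0.10, edgeR adjusted p = 0.0297), whose groups overlapped, at 145 to 155 CPM with Hoxb1 and 136 to 147 CPM in untreated NPs. It lost the call in 7 alternatives.

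All 7 entry genes had negative log2 changes, and 5 of them passed. Ccnd2 had 1109, 1055 and 1074 CPM in NPs with Hoxb1, against 1359, 1347 and 1396 CPM in untreated NPs (log2 change -0.33, SE 0.0283, edgeR adjusted p = 4.07e-13). Ccnd1 fell by 0.31, Cdk6 by 0.54 and Myc by 0.43 on the log2 scale. Cdk6 stood at 20.1, 19.9 and 18.6 CPM with Hoxb1 and at 26.3, 30.4 and 29.2 CPM in untreated NPs, without overlap (SE 0.0720, edgeR adjusted p = 3.70e-08). Ccnd3 changed by -0.08 with an adjusted p of 0.0459 by edgeR and 0.0861 by DESeq2. Cdk4 (-0.02) and Mycn (-0.07) did not pass.

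The 18 replication genes split. Tyms had 11.9, 13.3 and 12.5 CPM in NPs with Hoxb1 against 17.2, 17.2 and 19.6 CPM in untreated NPs (log2 change -0.51, SE 0.0958, edgeR adjusted p = 3.08e-05). Mcm6 had 105, 105 and 106 CPM with Hoxb1 against 142, 142 and 143 CPM in untreated NPs (log2 change -0.42, SE 0.0362, edgeR adjusted p = 4.72e-13). Mcm5 had 122, 129.5 and 137 CPM with Hoxb1 against 155, 158 and 159 CPM in untreated NPs (log2 change -0.27, SE 0.0376, edgeR adjusted p = 8.05e-08). In these 3 genes the groups did not overlap. Cdt1 (-0.30), Mcm2 (-0.24), Cdk2, the kinase partner of cyclin E (-0.14), and Mcm3 (-0.11) fell too. Within the helicase, Mcm4 was at 0.08 and Mcm7 at -0.07, and neither passed, so the 6 subunits of one ring ran from -0.42 to 0.08. The 4 that rose were Ccne1, cyclin E1 (0.35), E2f2, an activating E2F factor (0.34), Rrm1 (0.33) and Cdc6 (0.19). Rrm1 rose while Rrm2, its partner in the same enzyme, did not pass (0.03, edgeR adjusted p = 0.473). Cdc6 lost the call without untreated replicate 2 (edgeR adjusted p = 0.0501) or without Hoxb1 replicate 1 (0.115).

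Of 57 other mitosis genes 32 rose, 8 fell and 17 did not pass (median 0.12), but the 2 largest changes were falls, in Mybl2, the B-Myb factor of late transcription (46.6 ± 3.07 CPM with Hoxb1 and 73.9 ± 2.36 CPM in untreated NPs, log2 change -0.66), and in the kinetochore subunit Ndc80 (46.1 ± 0.325 CPM with Hoxb1 and 70.6 ± 4.46 CPM in untreated NPs, -0.61). Of 46 other replication genes 9 rose, 11 fell and 26 did not pass (median -0.03), with Pola1, the catalytic subunit of polymerase alpha, at -0.55 and Uhrf1, which carries DNA methylation through replication, at 0.48. Of the 9 inhibitors and pocket proteins 6 rose, 1 fell and 2 did not pass. Cdkn1c, the inhibitor p57, stood at 368 ± 3.96 CPM with Hoxb1 and 237 ± 6.77 CPM in untreated NPs (log2 change 0.65, SE 0.0328, edgeR adjusted p = 2.59e-20), and Rbl2, the pocket protein p130, changed by 0.25. Beside these counts, 6 of 7 neuron markers rose and 1 fell (1892 to 1995 CPM with Hoxb1, 1404 to 1471 CPM in untreated NPs). All 5 pluripotent markers fell (99.2 to 113 CPM with Hoxb1, 181 to 205 CPM in untreated NPs), and all 4 mesenchyme markers rose (910.4 to 936.5 CPM with Hoxb1, 393 to 421 CPM in untreated NPs). All 3 floor plate markers fell (median log2 change -1.13, 42.3 to 45.1 CPM with Hoxb1, 82.9 to 87.2 CPM in untreated NPs). Of 4 neural progenitor markers 2 rose and 2 fell (median -0.06, 1145 to 1152 CPM with Hoxb1, 1206 to 1318 CPM in untreated NPs). Of 6 NMP markers 5 fell (median -1.39, 521 to 536.5 CPM with Hoxb1, 613 to 679 CPM in untreated NPs). Most of that NMP sum was Sox2, also a neural progenitor marker, at means of 523 CPM with Hoxb1 and 620 CPM in untreated NPs. Cdx2 was the lowest, at 0.115 CPM with Hoxb1 and 0.853 CPM in untreated NPs. Of 4 endoderm markers 2 fell (median -0.64, 4.77 to 6.23 CPM with Hoxb1, 9.39 to 11.3 CPM in untreated NPs). Of 3 paraxial mesoderm markers tested 0 rose and 0 fell, and Msgn1 of that list was at 0 in NPs with Hoxb1. No other of these markers was at 0, and their part in the result was not tested.

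**Figure D3:**
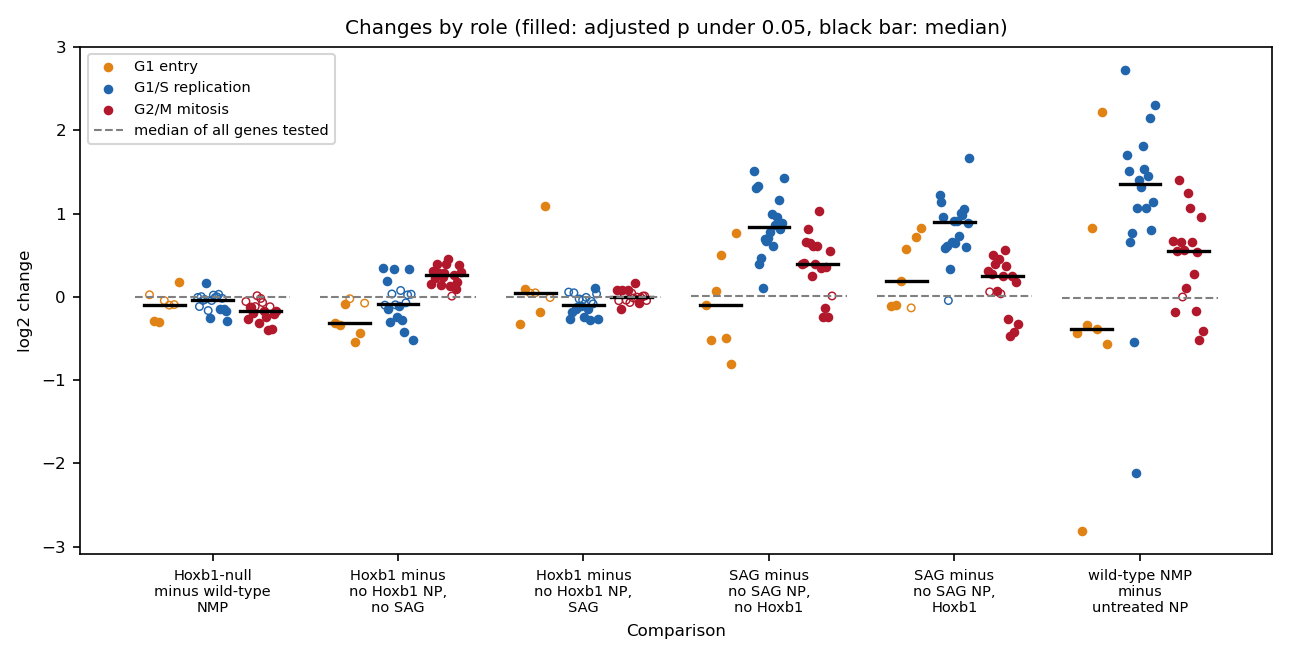
Log2 change (vertical axis) of each of the 42 genes in 6 comparisons (horizontal axis), by role. Filled points had an edgeR adjusted p under 0.05, open points did not, black bars are medians of a role and dashed lines are medians of all genes tested. The median of the G2/M genes is -0.16 for Hoxb1-null minus wild-type NMPs, 0.26 for Hoxb1 without SAG, near 0 for Hoxb1 with SAG, and 0.39 and 0.26 for SAG without and with Hoxb1.

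With SAG present, the same comparison of Hoxb1 with no Hoxb1 gave few calls among G2/M genes. 4 rose (Cenpa, Bub1, Aurka and Ccnb1), 2 fell (Birc5 and Cenpf) and 11 did not pass, with a median log2 change of -0.00 and a range from -0.15 to 0.17. Over all genes 21.4% were called higher and 21.9% lower, so these counts stand near or below the background. Cenpa, the histone variant that marks centromeres, had 154, 158 and 154.5 CPM in NPs with Hoxb1 and SAG against 140.0, 140.3 and 137 CPM in NPs with SAG (log2 change 0.17, SE 0.0309, edgeR adjusted p = 2.14e-05). It was the 1 rise that did not depend on a setting. Bub1, Aurka and Ccnb1 (0.08 to 0.09) lost their calls under DESeq2, RLE factors, either filter, the fit of all 18 libraries and the fit of 6, and Cenpf (-0.07) lost its call in 8 alternatives. Cdk1 stood at 151 ± 5.80 CPM with Hoxb1 and SAG and 153 ± 5.43 CPM with SAG, and did not pass (log2 change -0.01, edgeR adjusted p = 0.790).

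Of the 25 G1/S genes 11 fell with Hoxb1 and SAG, 3 rose and 11 did not pass. Mcm6 had 224, 206.5 and 209 CPM in NPs with Hoxb1 and SAG against 264, 256 and 257 CPM in NPs with SAG (log2 change -0.28, SE 0.0301, edgeR adjusted p = 3.58e-10). Mcm3 (-0.24), Mcm5 (-0.15), Cdt1 (-0.15), Tyms (-0.26), Ccne2, cyclin E2 (-0.27), Cdc6 (-0.18), E2f1 (-0.12) and Gins2 (-0.11) made up the other replication genes that fell. The call of Gins2 (edgeR adjusted p = 0.0406) was lost in 6 of 13 alternatives, DESeq2 among them (adjusted p = 0.117). Ccnd1 had 474, 468 and 455.5 CPM with Hoxb1 and SAG against 593, 578 and 584 CPM with SAG, a change of -0.32, beside -0.31 without SAG. Cdk6 (-0.18) was the other entry gene that fell, and lost the call under DESeq2 (adjusted p = 0.0748) and without SAG replicate 2 (edgeR adjusted p = 0.140). Rrm1 (0.11) rose, and lost the call without SAG replicate 2 (edgeR adjusted p = 0.0538) or without Hoxb1 and SAG replicate 1 (0.0627). Ccnd2 (0.09) rose, and lost the call in the fit of all 18 libraries (edgeR adjusted p = 0.0926), without SAG replicate 3 (0.0785) and without Hoxb1 and SAG replicate 1 (0.0618). Without that last library 1 of the 3 rises was left, that of Myc. Of 46 other replication genes 21 fell, 1 rose (Cdc7, the kinase that fires origins, 0.35) and 24 did not pass. Of 57 other mitosis genes 19 rose, led by the kinetochore subunit Spc25 (0.34) and the phosphatase Cdc25c (0.30), 9 fell and 29 did not pass. Of the 9 inhibitors and pocket proteins 2 rose, 3 fell and 4 did not pass. Cdkn1a, the inhibitor p21, stood at 364 ± 7.83 CPM with Hoxb1 and SAG and 257 ± 1.17 CPM with SAG (log2 change 0.51, edgeR adjusted p = 5.11e-18), and Cdkn2a fell by 0.50. Of 7 neuron markers 3 rose and 3 fell (936 to 967 CPM with Hoxb1 and SAG, 851.5 to 874 CPM with SAG). Of 4 neural progenitor markers 2 fell and 0 rose (median -0.22, 753.5 to 794 CPM with Hoxb1 and SAG, 899 to 933 CPM with SAG). Of 3 floor plate markers 2 fell and 1 rose (log2 changes of -1.25 to 0.29, 191 to 195 CPM with Hoxb1 and SAG, 276 to 293 CPM with SAG). Of 6 NMP markers 3 fell (median -0.93, 392 to 419.5 CPM with Hoxb1 and SAG, 452 to 459 CPM with SAG). Most of that NMP sum was Sox2, at means of 390.5 CPM with Hoxb1 and SAG and 412 CPM with SAG. Of 3 paraxial mesoderm markers tested 2 rose (median 0.91), from a list that summed to 6.38 to 7.25 CPM with Hoxb1 and SAG and 3.28 to 3.68 CPM with SAG, with Msgn1 at 0 in NPs with Hoxb1 and SAG. Of 5 pluripotent markers 2 rose and 2 fell. Of 4 endoderm markers 2 rose and 1 fell, and of 4 mesenchyme markers 1 rose and 1 fell. The part of these markers in the result was not tested.

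Myc was the member with the largest Hoxb1 change, and its direction turned with SAG. It had 20.3, 21.1 and 20.9 CPM in NPs with Hoxb1 and SAG against 9.99, 9.98 and 9.23 CPM in NPs with SAG (log2 change 1.10, SE 0.0690, edgeR adjusted p = 3.36e-17). Without SAG it had 13.7, 11.7 and 12.3 CPM with Hoxb1 against 16.7, 17.7 and 16.8 CPM in untreated NPs (log2 change -0.43, SE 0.0844, edgeR adjusted p = 4.50e-05). The groups did not overlap on either side, and the difference of the effects was 1.53 (SE 0.109, edgeR adjusted p = 4.58e-15). In Hoxb1-null and wild-type NMPs, where Myc was more abundant at 74.6 ± 1.65 CPM in null and 79.4 ± 3.97 CPM in wild-type cells, it did not pass (log2 change -0.09, edgeR adjusted p = 0.172).

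The test of that difference, the Hoxb1 effect with SAG minus the Hoxb1 effect without SAG, was called for 13 of 17 G2/M genes, all 13 lower and 0 higher, with a median of -0.31 (13 and 0 by DESeq2, and 0 higher at an unadjusted p under 0.05 by edgeR, as 21.2% of all genes were). Over all genes 16.8% were called higher and 18.6% lower. The largest differences were in Cdk1 (-0.47, SE 0.0550, edgeR adjusted p = 3.57e-09), Birc5 (-0.38), Plk1 (-0.37), Ccnb2 (-0.36), Aurkb (-0.35) and Cdc20 (-0.35). Cenpa (0.03), Aurka, Cenpe and Kif11 did not pass. Of the 25 G1/S genes 9 were called higher and 6 lower. Higher ones included Ccnd2 (0.42, edgeR adjusted p = 1.50e-11), whose change was -0.33 without SAG and 0.09 with it, and Cdk6 (0.36). Lower ones included Cdc6 (-0.37), E2f2 (-0.36) and Ccne1 (-0.29). For Ccnd1 the difference was -0.01 and did not pass (SE 0.0427, edgeR adjusted p = 0.864). Of the wider lists, 5 of 57 other mitosis genes were called higher and 21 lower, 6 of 46 other replication genes higher and 14 lower, and 2 of 9 inhibitors and pocket proteins higher and 5 lower. The named ones were Uhrf1 (-0.58), Gmnn (-0.54), Mybl2 (0.52), Ccnf (-0.46), Cdkn2b (-0.98) and Cdkn2a (-0.89). Because the SAG states lie in separate library sets, this difference cannot be told apart from a difference between sets.

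**Figure D4:**
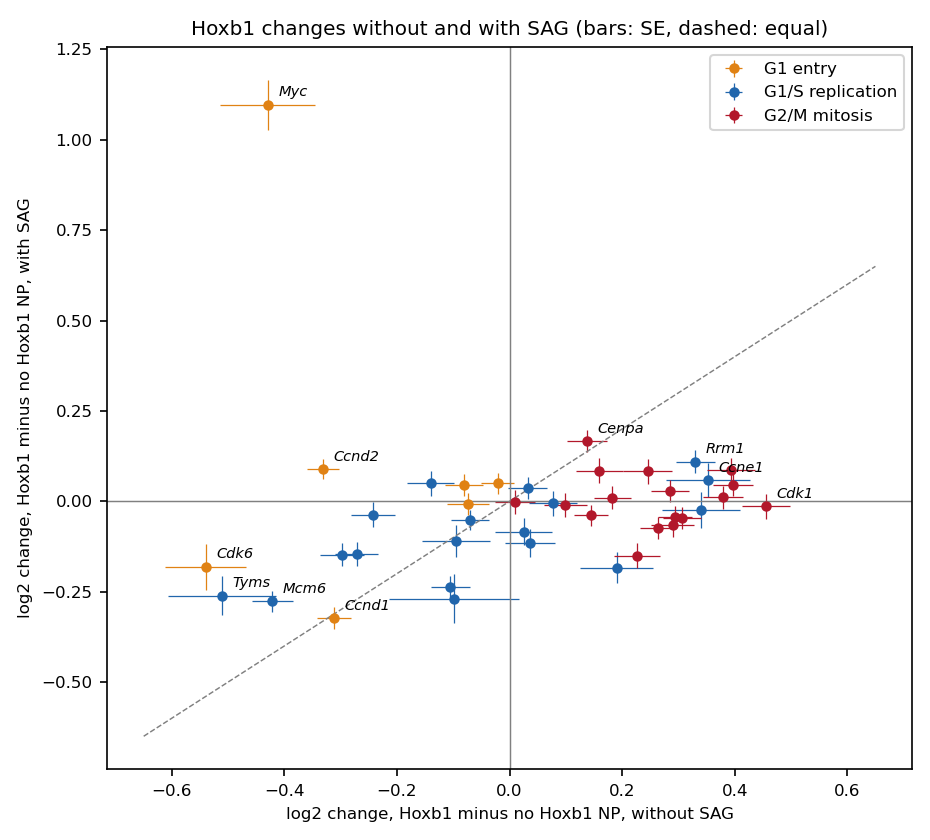
Log2 change for Hoxb1 minus no Hoxb1 in NPs with SAG (vertical axis) against the same without SAG (horizontal axis) for the 42 genes, coloured by role. Bars are SE from the test, and the dashed line marks equal changes. The G2/M genes lie at 0.01 to 0.46 on the horizontal axis and between -0.15 and 0.17 on the vertical one, and Myc lies at -0.43 and 1.10.

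NPs with SAG had higher levels of the replication genes. In NPs without Hoxb1, all 18 G1/S replication genes rose (median log2 change 0.85, range 0.11 to 1.51), and with the 7 entry genes 21 of 25 G1/S genes rose and 4 fell. Of the 17 G2/M genes 13 rose, 3 fell and Top2a did not pass (median 0.39). The background in this comparison was high, at 36.5% of genes called higher and 36.3% lower. In NPs with Hoxb1 21 of 25 G1/S genes rose, 2 fell and 2 did not pass, while 11 of 17 G2/M genes rose, 4 fell and 2 did not pass (medians 0.90 for the 18 replication genes and 0.26 for G2/M). There the background was 36.4% higher and 35.8% lower. These comparisons share their libraries with the Hoxb1 comparisons above, so the values are set side by side and not read as separate support.

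Ccne1 had 63.8, 61.0 and 58.3 CPM in NPs with SAG, against 24.0, 21.2 and 19.0 CPM in untreated NPs (log2 change 1.51, SE 0.0614, edgeR adjusted p = 1.58e-23). Tyms had 52.5, 43.2 and 49.7 CPM with SAG against 17.2, 17.2 and 19.6 CPM in untreated NPs (log2 change 1.43, SE 0.0700, edgeR adjusted p = 1.50e-19). In both genes every SAG library lay above every untreated library. Cdc6 (1.33), Ccne2 (1.31), Pcna (1.17) and the 6 helicase subunits (0.61 to 0.99) rose with them. With Hoxb1 present the changes were 1.68 for Tyms, 1.22 for Ccne1 and 0.64 to 1.01 for the helicase, and E2f1 (-0.04) was the replication gene that did not pass. The difference between the SAG changes with and without Hoxb1 is the same contrast as the difference of Hoxb1 effects above. It was called for 11 of the 18 replication genes, Ccne1 (-0.29), Mcm2 (0.20), Mcm6 (0.14), Mcm3 (-0.13) and Mcm5 (0.13) among them. Of these, Mcm5 lost the call in 12 of 18 alternatives, Mcm3 in 6, Ccne1 in 2 and Mcm6 in 1. E2f1 had also changed least without Hoxb1 (0.11), and lost that call under DESeq2 (adjusted p = 0.0672), without SAG replicate 3 (edgeR adjusted p = 0.0660) and without untreated replicate 2 (0.168).

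Entry genes went both ways. Mycn, a hedgehog target in cerebellar granule precursors, had 158, 154 and 153 CPM with SAG against 91.3, 88.8 and 93.6 CPM in untreated NPs (log2 change 0.77, SE 0.0340, edgeR adjusted p = 9.87e-23). Cdk4 rose by 0.50, and Ccnd3 stood at 0.07 with an adjusted p of 0.0486 by edgeR, a call lost in 9 of 13 alternatives. Ccnd2 had 955, 959 and 942 CPM with SAG against 1359, 1347 and 1396 CPM in untreated NPs (log2 change -0.52, SE 0.0282, edgeR adjusted p = 7.41e-20). Myc (-0.81), Cdk6 (-0.49) and Ccnd1 (-0.09) fell as well. In NPs with Hoxb1, Myc rose with SAG (0.72), as the values above show. Among the G2/M genes Cdk1 had 153, 147 and 158 CPM with SAG against 78.5, 73.2 and 73.3 CPM in untreated NPs (log2 change 1.03, SE 0.0394, edgeR adjusted p = 6.14e-25). Bub1 (0.81), Birc5 (0.66) and Bub1b (0.65) followed. Mki67 (-0.25), Cenpe (-0.25) and Cenpf (-0.13) were the 3 called lower.

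Those 3 are, with Top2a, the 4 members with the longest exons, and the change with SAG followed exon length over all genes. Cenpf has 11353 exon bases, Mki67 10075, Top2a 9013 and Cenpe 7813. In NPs without Hoxb1 the median log2 change of all genes was 0.29 in the shortest of 5 equal-sized length bins (up to 1682 bases) and -0.24 in the longest (5984 bases or more). It was 0.28 and -0.22 with Hoxb1. In the Hoxb1 comparison without SAG it was 0.03 and 0.01, and in NMPs -0.00 and -0.02. With the trend on exon length removed, an alternative chosen after the data were seen, 15 of 17 G2/M genes rose with SAG in NPs without Hoxb1 and the other 2 did not pass (median 0.34). Mki67 then stood at 0.04 (edgeR adjusted p = 0.263), Cenpe at -0.07 (0.0599), Cenpf at 0.20 (3.39e-08) and Top2a at 0.25 (3.42e-10). None of the 3 was then called lower, and Ccnd3 stood at -0.11 (0.00178). In NPs with Hoxb1 the 4 long genes were still called lower after this step (-0.09 to -0.18), Ccnb2 stood at -0.21 in place of 0.04, and in all 8 G2/M genes rose and 5 fell, with a median of 0.05. Of the 18 replication genes 17 still rose in each comparison, with medians of 0.79 without and 0.84 with Hoxb1. The exception was E2f1, which did not pass without Hoxb1 (0.05) and was lower with it (-0.10, edgeR adjusted p = 0.0349).

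**Figure D5:**
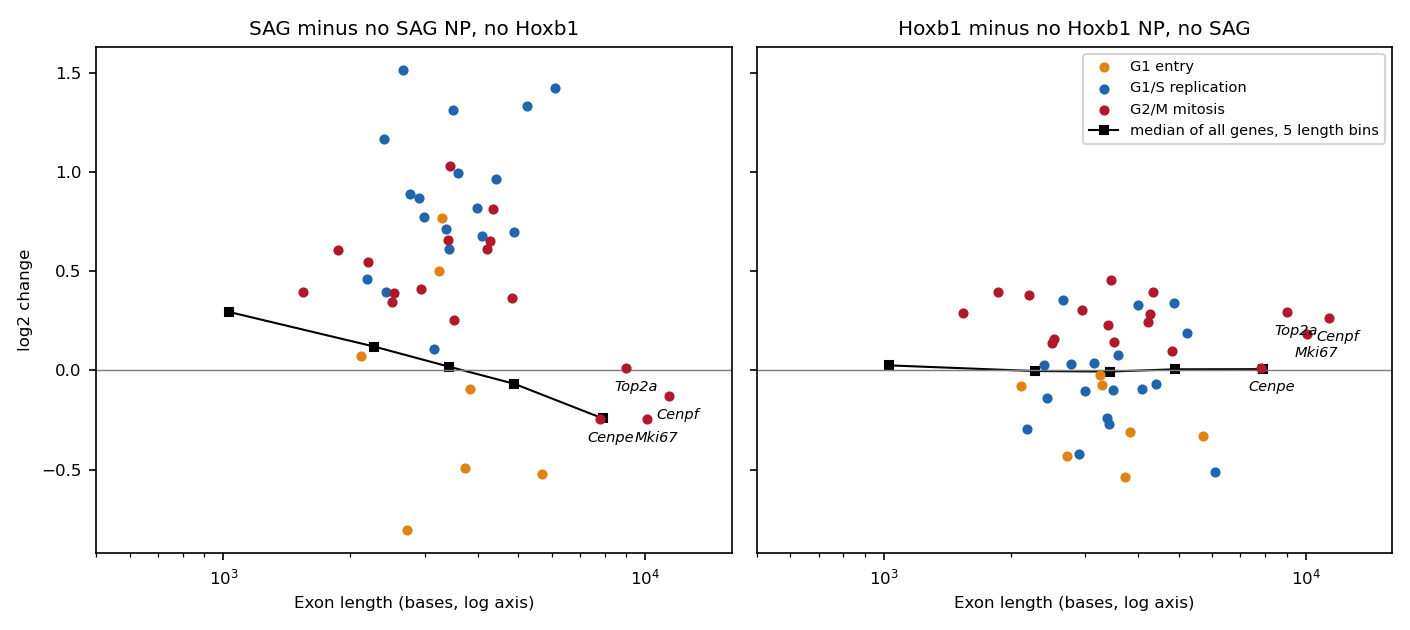
Log2 change (vertical axis) of the 42 genes against summed exon length (horizontal log axis, bases) for SAG minus no SAG in NPs without Hoxb1 (left) and for Hoxb1 minus no Hoxb1 in NPs without SAG (right). Black squares are medians of all genes in 5 equal-sized length bins, at the median length of each bin. On the left the medians run from 0.29 in the shortest bin to -0.24 in the longest, and on the right they stay between -0.01 and 0.03.

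Of 46 other replication genes 44 rose with SAG and 2 did not pass without Hoxb1, and 43 rose and 3 did not pass with Hoxb1. Gmnn, the inhibitor of origin licensing, stood at 74.4 ± 3.50 CPM with SAG and 26.1 ± 2.39 CPM in untreated NPs (log2 change 1.51), and Dut, a pyrophosphatase that removes dUTP, changed by 1.44. With Hoxb1 Dut (1.32) and Tipin, a fork protection protein (1.27), led. Of 57 other mitosis genes 40 rose, 7 fell and 10 did not pass without Hoxb1, and 39 rose, 11 fell and 7 did not pass with it. Cdca5, which protects cohesin (1.10), and the checkpoint protein Mad2l1 (0.93) led in the first comparison, and Mybl2 (1.17) and the centromere protein Cenpk (0.95) in the second. Of the 9 inhibitors and pocket proteins 4 rose and 5 fell without Hoxb1, and 2 rose, 5 fell and 2 did not pass with it. Cdkn2b, the inhibitor p15, had 9.88 ± 0.937 CPM with SAG and 1.28 ± 0.414 CPM in untreated NPs (log2 change 2.95), and Cdkn2a changed by 2.16. With Hoxb1 these 2 changed by 1.97 and 1.27. All 7 neuron markers fell with SAG in both comparisons (851.5 to 874 CPM with SAG and 1404 to 1471 CPM in untreated NPs, 936 to 967 CPM with Hoxb1 and SAG and 1892 to 1995 CPM with Hoxb1). Of 4 neural progenitor markers 3 fell without Hoxb1 (median -0.51, 899 to 933 CPM with SAG, 1206 to 1318 CPM in untreated NPs). With Hoxb1 all 4 fell (median -0.73, 753.5 to 794 CPM with Hoxb1 and SAG, 1145 to 1152 CPM with Hoxb1). All 4 mesenchyme markers rose without Hoxb1 (2037 to 2075 CPM with SAG, 393 to 421 CPM in untreated NPs), and all 3 floor plate markers rose in both comparisons (276 to 293 CPM with SAG and 82.9 to 87.2 CPM in untreated NPs, 191 to 195 CPM with Hoxb1 and SAG and 42.3 to 45.1 CPM with Hoxb1). With Hoxb1, 3 mesenchyme markers rose and 1 fell (by 0.94 on the log2 scale), at sums of 1995 to 2187 CPM with Hoxb1 and SAG and 910.4 to 936.5 CPM with Hoxb1. All 4 endoderm markers rose in both comparisons, with a median log2 change of 1.43 without Hoxb1 and 1.74 with it. Most of the endoderm sum was Foxa2, which is also in the floor plate list. Foxa2 averaged 79.0 CPM of a sum of 81.85 to 86.6 CPM with SAG. With Hoxb1 and SAG it averaged 96.4 CPM of 98.53 to 103.6 CPM. Of 5 pluripotent markers 2 rose without Hoxb1 (median 0.06, 293.5 to 325.6 CPM with SAG, 181 to 205 CPM in untreated NPs). All 5 rose with Hoxb1 (median 1.22, 247 to 275 CPM with Hoxb1 and SAG, 99.2 to 113 CPM with Hoxb1). Of 6 NMP markers 2 rose and 4 fell without Hoxb1 (-4.53 to 2.87), and 2 rose and 2 fell with it. Of 3 paraxial mesoderm markers tested 2 fell without Hoxb1, and 1 rose and 1 fell with it. Msgn1 of that list was at 0 in both NP groups with Hoxb1. No other of these markers was at 0, and their part in the result was not tested.

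Wild-type NMPs set against untreated NPs had more RNA of most replication genes and of many mitotic ones. Of the 18 replication genes 16 were higher and 2 lower (median log2 change 1.36), of the 25 G1/S genes 18 were higher and 7 lower, and of the 17 G2/M genes 12 were higher, 4 lower and Ccna2 not called (median 0.56). The background was 42.3% of 16761 genes called higher and 43.7% lower, and cell type, line, differentiation and library set cannot be told apart. Both groups also served as controls above. Ccne1 had 140.2, 143 and 141 CPM in wild-type NMPs against 24.0, 21.2 and 19.0 CPM in untreated NPs (log2 change 2.73, SE 0.0563, edgeR adjusted p = 2.84e-40). Tyms (2.30), Pcna (2.15), Mcm4 (1.82) and Ccne2 (1.71) were higher too, and E2f1 (-0.54) and E2f2 (-2.12) were the 2 replication genes that were lower. E2f2 had 4.84, 4.59 and 4.94 CPM in wild-type NMPs against 20.5, 21.5 and 20.4 CPM in untreated NPs.

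Ccnd2 and Myc had the largest changes among entry genes. Ccnd2 had 195, 207 and 181 CPM in wild-type NMPs against 1359, 1347 and 1396 CPM in untreated NPs (log2 change -2.82, SE 0.0445, edgeR adjusted p = 6.58e-37). Myc had 83.0, 80.1 and 75.2 CPM in wild-type NMPs against 16.7, 17.7 and 16.8 CPM in untreated NPs (log2 change 2.22, SE 0.0603, edgeR adjusted p = 4.00e-35). Mycn was lower in NMPs (-0.57), as were Ccnd1 (-0.44), Cdk6 (-0.39) and Ccnd3 (-0.33), and Cdk4 was higher (0.82). Among G2/M genes Bub1 (202 CPM in wild-type NMPs and 76.7 CPM in untreated NPs), Cdc20 (1.25), Cdk1 (1.07) and Plk1 (0.96) were higher, and Mki67 (-0.52), Top2a (-0.42), Aurkb (-0.18) and Cenpf (-0.17) were lower. The length trend was present here too, with a median of 0.40 in the shortest and -0.35 in the longest bin, and with it removed Cenpf stood at 0.30, Ccnb2 at -0.26 in place of 0.11, and Top2a at -0.06 and not called. Of the wider lists, 42 of 46 other replication genes were higher and 4 lower (Orc1, the large origin recognition subunit, 2.39, and Dut, 2.25), and 29 of 57 other mitosis genes were higher, 23 lower and 5 not called. The largest of the mitosis changes were lower in NMPs, in the phosphatase Cdc25b (14.3 ± 0.205 CPM in wild-type NMPs and 145 ± 2.18 CPM in untreated NPs, -3.34) and in Ckap2 (-1.53). Of the 9 inhibitors and pocket proteins 2 were higher, 6 lower and 1 not called, with Cdkn2c, the inhibitor p18, at -4.24 and Rbl2 at -2.73. All 7 neuron markers were lower (176 to 183 CPM in wild-type NMPs, 1404 to 1471 CPM in untreated NPs). All 4 mesenchyme markers, all 3 floor plate markers and 4 of 5 pluripotent markers were lower as well, while 5 of 6 NMP markers were higher. The other pluripotent marker, Pou5f1, was higher (log2 change 3.01, 385 CPM in wild-type NMPs). The 5 pluripotent markers summed to 399 to 425 CPM in wild-type NMPs and 181 to 205 CPM in untreated NPs. Of 4 neural progenitor markers 3 were lower and 1 was higher (319 to 346.5 CPM in wild-type NMPs, 1206 to 1318 CPM in untreated NPs). Of 4 endoderm markers 2 were higher and 1 lower, and of 4 paraxial mesoderm markers 2 were higher and 0 lower. None of these markers was at 0, and their part in the result was not tested.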

How the data were processed

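RNA sequencing counts of 18 libraries in 6 groups of 3 were used, grouped by their labels. The authors deposited raw counts per gene made with featureCounts 1.4.6 on the mm10 build after bcl2fastq 1.8.2, per the submitters' processing notes. The labels' protocols give a poly(A)-selected, strand-specific library. Neither the labels nor the notes state the aligner, the annotation release or the strand setting. Of the 37224 genes, 35449 had a symbol and 1775 did not. The 42 genes, the wider lists and the marker lists were chosen with earlier results of these data known.

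Genes were tested with edgeR 4.0.16 in R 4.3.3 (limma 3.58.1), by the quasi-likelihood F-test with robust dispersions, TMM factors, the default filter on low counts by group, and Benjamini-Hochberg adjustment over all genes tested. The threshold for a call was an adjusted p of 0.05. Separate fits held the 6 NMP libraries (15032 genes), the 12 NP libraries (16238 genes), and all 18, for wild-type NMPs against untreated NPs (16761 genes). SE is the log2 change divided by the root of F. Levels are CPM on TMM-scaled totals of all 18 libraries, and RPKM uses the deposited exon length. All 42 genes could be named. Per-library values were printed for those with the largest changes in a comparison or with calls in opposite directions. Lack of overlap in these genes partly follows from that choice. From each wider list up to 2 called genes per comparison were named, those with the largest change and at least 5 CPM in the higher group. Total counts of 13301476 to 26974315 set the counting error. Replicate pairs differed by a chi-square of 1.35 to 5.07 per gene, so no column of counts was a copy of another. This cannot show whether the replicates were separate cultures. The test code was also run on simulated counts with known changes, drawn with the spread fitted to these libraries. Such counts cannot show effects of shared cultures, library sets, or trends on exon length or GC content. Alternatives were DESeq2 1.42.0, RLE factors, no filter, a stricter filter (1 CPM in 3 libraries), a replicate block, other sets of libraries, each library left out, and removal of a trend on exon length or GC content, the last pair added after the data were seen. Same-numbered libraries were not treated as pairs in the main tests, and the replicate block is the alternative that does so.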

Additional observations from a re-analysis of the deposited data

Results flagged for a closer look

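The log2 change with Hoxb1 differed between NPs with SAG and NPs without SAG, by the tested difference of the effects with SAG minus without SAG (edgeR adjusted p under 0.05), for 28 of the 42 genes. Over all 16238 genes tested, this difference was called higher for 16.8% and lower for 18.6%. Among entry genes the difference was 1.53 for Myc, 0.42 for Ccnd2, 0.36 for Cdk6 and 0.13 for Ccnd3. Among replication genes it was 0.20 for Mcm2, 0.19 for Cdk2, 0.15 for Cdt1, 0.14 for Mcm6 and 0.13 for Mcm5. It was -0.37 for Cdc6, -0.36 for E2f2, -0.29 for Ccne1, -0.22 for Rrm1, -0.15 for E2f1 and -0.13 for Mcm3. Among G2/M genes all differences called were negative. They were -0.47 for Cdk1, -0.38 for Birc5, -0.37 for Plk1, -0.36 for Ccnb2, -0.35 for Aurkb, -0.35 for Cdc20, -0.34 for Cenpf and -0.34 for Top2a. They were -0.31 for Bub1, -0.26 for Bub1b, -0.18 for Ccna2, -0.17 for Mki67 and -0.16 for Ccnb1. Of 18 alternatives, the call was lost in 12 for Mcm5, 11 for E2f1, 8 for Ccnd3 and 6 for Mcm3. It was lost in 4 for Ccnb1, 3 for Cdt1, 2 for Ccne1 and 1 for Mcm6. SAG and library set cannot be told apart here.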

How the results depend on the processing

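Of 294 changes of the 42 genes over 7 comparisons 220 were called. In the alternatives other than trend removal, 191 kept their call and sign throughout, 29 lost the call at least once and 0 called changes turned. Of the uncalled, 11 were called at least once. Removal of the exon length trend ended 9 calls and added 5, and 6 changes called before or after it turned sign. Removal of the GC trend ended 8 calls and added 10, and 0 turned. DESeq2 ended 18 calls, the fit of all 18 libraries 14, no filter 10, RLE factors 6, the fit of the 6 compared libraries 5 and the stricter filter 4. The replicate block ended 1 call, that of Birc5 in NMPs (edgeR adjusted p = 0.0554). Correlations of same-numbered libraries ran from -0.103 to 0.378. Between NPs with Hoxb1 and SAG and NPs with SAG they were 0.378, 0.357 and 0.0191 for replicates 1, 2 and 3. In NPs without SAG every library correlated best with its own number, at 0.0152 to 0.0365. Whether same-numbered samples are pairs is not settled by these values.

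In NMPs, DESeq2 called 1424 genes higher in place of 2244. There 2 G1/S genes were called higher, but 0 by DESeq2, 1 with no filter and 0 to 2 with a library left out. For Hoxb1 with SAG, 4 G2/M genes were called higher, but 1 under DESeq2, RLE factors, no filter, the stricter filter, all 18 or 6 libraries, 2 with the GC trend removed and 1 to 3 with a library left out. The 2 lower were 1 under DESeq2, no filter, all 18 or 6 libraries and 1 to 3 with a library left out, and the 3 G1/S genes higher were 1 to 3. With the exon length trend removed, 0 G2/M genes in place of 3 were lower with SAG in NPs without Hoxb1. There Mki67 turned to 0.037, Cenpf to 0.20 and Ccnd3 to -0.11. With Hoxb1, Ccnb2 turned to -0.21. In wild-type NMPs against untreated NPs, Cenpf turned to 0.30 and Ccnb2 to -0.26. Over all genes, the median Hoxb1 change without SAG was -0.04 in the lowest of 5 GC content bins and 0.06 in the highest. With that trend removed, 14 G1/S genes fell and 5 rose, in place of 12 and 4, and 16 G2/M genes still rose. For the difference of Hoxb1 effects the medians were 0.05 and -0.05. There removal gave 10 G1/S genes higher and 4 lower, in place of 9 and 6, and 14 G2/M genes lower in place of 13. The cause of these changes was not tested. With a library left out, G2/M genes lower in Hoxb1-null NMPs numbered 8 to 12, and G2/M genes higher with Hoxb1 and no SAG numbered 15 to 16. Depth limits the genes with few counts, such as E2f2 in NMPs (58 to 81 per library in null, 74 to 89 in wild type). Ccne2 had 113 to 158 counts per library in untreated NPs and 124 to 137 in NPs with Hoxb1.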
